A study of Arabidopsis thaliana with 6 samples.

Results

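The genes described here encode the early enzymes of gibberellin synthesis and the gibberellin 3-oxidases of Arabidopsis thaliana. They were chosen by name and comprise 9 of 27444 RefSeq protein-coding genes: GA1, GA2, GA3, KAO1, KAO2, GA3OX1, GA3OX2, GA3OX3 and GA3OX4. Gibberellin is a growth hormone built from geranylgeranyl diphosphate. In the plastid, GA1 (ent-copalyl diphosphate synthase) and GA2 (ent-kaurene synthase) close the rings. GA3 (ent-kaurene oxidase) and then KAO1 and KAO2 (ent-kaurenoic acid oxidases), all cytochrome P450 enzymes, oxidise the product, and 20-oxidases and 3-oxidases carry out the last steps, the 3-oxidases giving the bioactive hormone. DELLA proteins such as RGA are nuclear regulators that repress gibberellin responses, that the hormone removes, and that reach DNA through other transcription factors. Loss of DELLA function is known to lower transcripts of late synthesis genes, a feedback in which GA3OX1 takes part.

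Inflorescence apices of Landsberg-erecta plants were sampled in 3 biological replicates for each of 2 groups. All plants grew under 16 h of light, and all tissue was fixed for 20 min in 2% formaldehyde with 1 µM DSG, a further crosslinker. RGA-GFP plants carried RGAp:GFP-rga-delta17, a version of RGA that gibberellin does not remove, tagged with green fluorescent protein (GFP) and expressed from RGA's own promoter. Wild-type plants of the same accession lacked the tag and served as the epitope-negative control for the same anti-GFP pull-down. Binding was mapped by chromatin immunoprecipitation and sequencing, and peaks are those of the authors' lists: 1 for each library and a pooled list in which the combined RGA-GFP replicates were compared with the combined wild-type replicates. The apices hold several cell types, so a site used in few cells and a weaker site used in many cannot be told apart. The tissue label could not be checked with marker genes, because peak lists hold no expression values.

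RGA-GFP lists 1 to 3 rested on 14644122 to 16745139 tags after removal of duplicates and held 9343 to 11116 peaks each. The wild-type lists rested on fewer tags, 3999159 to 10014730, and held 285 to 972 peaks. The part of this difference in depth in the number of wild-type peaks was not tested.

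Of the 9 genes, 5 had a peak of the pooled list in the authors' deposited table: GA2, KAO2, GA3OX1, GA3OX2 and GA3OX4. Over all protein-coding genes 29.7% had one, so 5 of 9 stands against a frequent event, and the list was drawn up with earlier results of these data known. By step of the pathway, 2 of 5 early genes and 3 of 4 3-oxidase genes were listed with a pooled fold. The table lists a gene where at least 1 RGA-GFP list has a peak in its window, the coding sequence with 3000 bp on its upstream and 1500 bp on its downstream side, or less where some windows end at a neighbouring gene. GA1, GA3, KAO1 and GA3OX3 had no row in it, and 46.1% of protein-coding genes had one.

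The number of the 9 genes with a peak sharing at least 50 bp with the window was 5 in RGA-GFP list 1, 5 in list 2, 4 in list 3, and 0 in each wild-type list. A gene has a window in the table only through an RGA-GFP peak, so the direction of this difference was fixed by the table and is given without a test. It was true of the table as a whole: 83.3%, 88.6% and 77.4% of its genes had a peak in RGA-GFP lists 1, 2 and 3, and 7.11%, 1.02% and 3.27% in wild-type lists 1, 2 and 3. Measured without the table, as a peak within 5000 bp of the ends of the gene, 5 of the 9 genes had one in each RGA-GFP list, 1 had one in wild-type list 1, and 0 had one in wild-type lists 2 and 3. At GA3OX1 the nearest peak of list 3 lay 2089 bp from the gene, on its downstream side and outside its window. The wild-type peak was the one 3588 bp from GA2, outside its window. Over all protein-coding genes the shares were 62.7% to 69.1% in the RGA-GFP lists and 1.56% to 8.37% in the wild-type lists; the separation of the groups was thus not particular to the 9 genes. Wild-type peaks fell in the windows of 0 of the 5 listed genes, against 9.83% of all protein-coding genes with a pooled peak.

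**Figure D1:**
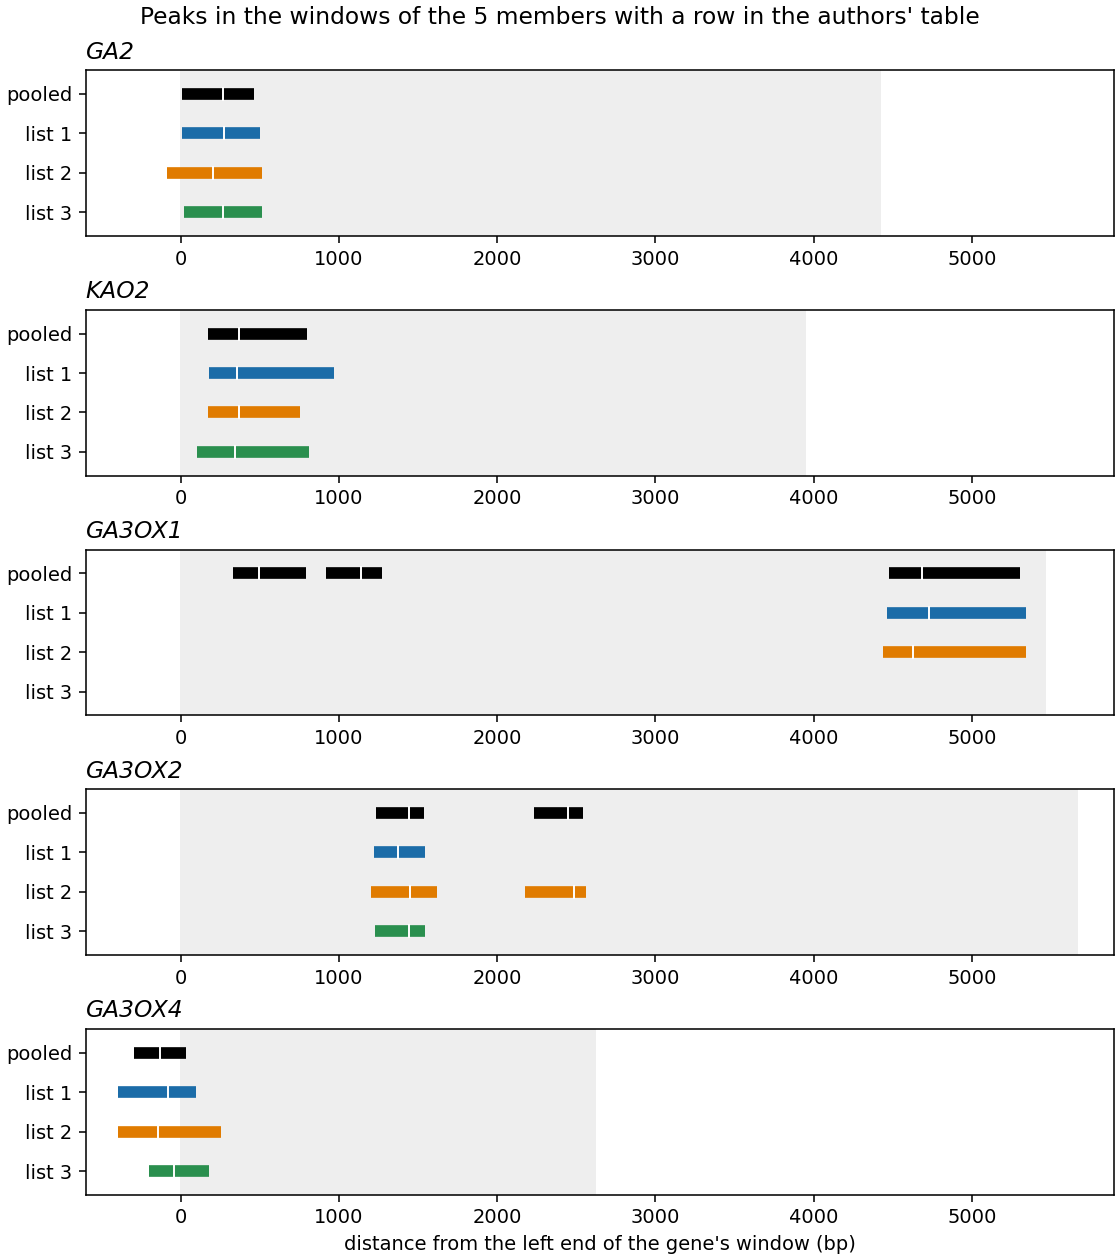
Peaks of the pooled list and of RGA-GFP lists 1 to 3 in the windows of the 5 genes with a row in the authors' table. The horizontal axis is the distance in bp from the left end of each window in chromosome order, grey is the window, bars are peaks and white ticks are summits. GA2 and KAO2 have a single site near the left end in every list, GA3OX1 has its strongest site in lists 1 and 2 only, and the GA3OX4 site straddles the end of its window.

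GA2 (AT1G79460), the ent-kaurene synthase gene, had the highest values of the 9. Its pooled peak lay on chromosome 1, 29890185 to 29890644 (TAIR10), with a fold of 2.04 over wild type and a −log10 q of 13.1. In the single lists, where the fold is taken over the library's own background, the site had 3.01 in list 1, 2.19 in list 2 and 2.59 in list 3 (2.60 ± 0.41, SD, n = 3). All 3 lists placed it at nearly the same position, with summits within 68 bp of each other. The pooled summit lay inside the gene, 81 bp from the end that faces its neighbour ALIS5 (AT1G79450), and the window of ALIS5 held the same peak. The site can therefore not be assigned to GA2 alone. Among the 8156 protein-coding genes with a pooled peak, 85.3% had a lower fold than GA2, and it was the 1 member with a fold of at least 2, which 5.22% of all protein-coding genes reached.

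KAO2 (AT2G32440), which encodes an ent-kaurenoic acid oxidase, had its peak near the end of the gene that faces AT2G32430. The pooled peak (chromosome 2, 13774675 to 13775303) had a fold of 1.76 and a −log10 q of 6.51, and its summit lay 282 bp inside the gene. The single lists gave 2.37 in list 1, 2.06 in list 2 and 1.72 in list 3 (2.05 ± 0.32, SD, n = 3), with summits within 27 bp, the closest among the 5 genes. The fold of KAO2 lay near the middle of genes with a pooled peak, 53.0% of which had a lower one. The peak fell in no other window of the table.

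Its paralog KAO1 (AT1G05160, named CYP88A3 in RefSeq) gave no such site. The nearest peak of any RGA-GFP list or the pooled list lay 8090 bp from the gene, and the nearest wild-type peak 96809 bp. GA1 (AT4G02780), which catalyses the first committed step, had its nearest RGA-GFP or pooled peak at 6699 bp and its nearest wild-type peak at 6227 bp. GA3 (AT5G25900), the ent-kaurene oxidase gene, had its nearest at 12250 bp and 259990 bp. GA3OX3 (AT4G21690), a 3-oxidase gene known for expression in flowers, had its nearest at 13050 bp and 56226 bp. These 4 genes thus had no peak of any of the 7 lists within 5000 bp, as did 25.9% of protein-coding genes. Weaker binding below the authors' q cutoff of 0.05 would not appear in these lists.

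GA3OX1 (AT1G15550), the 3-oxidase gene with the broadest known role in shoot growth, had 3 pooled peaks in its window. Of genes with a pooled peak, 7.16% had 3 or more. The strongest (chromosome 1, 5348181 to 5349010) was 830 bp long, longer than 86.8% of pooled peaks, with a fold of 1.86 and a −log10 q of 8.44. Its summit lay 2047 bp outside the gene, on the upstream side, and 2223 bp from the coding start as read from the upstream end of the window. It was found in list 1 with a fold of 2.34 and in list 2 with 2.04 (2.19 ± 0.21, SD, n = 2), and list 3 had no peak there. Of the pooled peaks found in lists 1 and 2, 9.09% were likewise missing from list 3.

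The other 2 pooled peaks of GA3OX1 were weaker and lay near the downstream end of the gene. The peak at 5344039 to 5344495 had a fold of 1.66, a −log10 q of 4.99 and a summit 186 bp beyond the gene, and it also fell in the window of AT1G15540, which encodes a 2-oxoglutarate-dependent oxygenase. The peak at 5344625 to 5344980 had a fold of 1.58, a −log10 q of 4.01 and a summit inside the gene, 454 bp from its downstream end. Neither overlapped a peak of any RGA-GFP list, and the nearest such peaks were 1685 bp and 2271 bp away. Of all pooled peaks, 5.09% overlapped no RGA-GFP list. The authors' table took the fold of GA3OX1 from the upstream site, the 1 site of this gene seen in single libraries.

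GA3OX2 (AT1G80340), a 3-oxidase gene known from germinating seeds and seedlings, had its strongest peak inside the gene. The pooled peak (chromosome 1, 30200772 to 30201074) had a fold of 1.70 and a −log10 q of 5.62. At 303 bp it was short, with 1.21% of pooled peaks shorter, and its summit lay 1217 bp downstream of the coding start as read from the window. The single lists gave 2.01 in list 1, 1.86 in list 2 and 1.78 in list 3 (1.88 ± 0.12, SD, n = 3), the smallest spread of the 5 genes. A further pooled peak (30201772 to 30202078) lay inside the gene 213 bp from the coding start. It had a fold of 1.45 and a −log10 q of 2.32, and it was found in list 2 alone, with a fold of 1.65.

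GA3OX4 (AT1G80330), a 3-oxidase gene known for expression in reproductive organs, is the neighbour of GA3OX2 on the chromosome. Its case is at the limit of the rule that links peaks to genes. The pooled peak (30197782 to 30198109, 328 bp, fold 1.62, −log10 q 4.89) shared 36 bp with the window, under the minimum of 50 bp, although the authors' deposited table gives the gene this fold. Of the 8629 rows of the table with a pooled fold, 133 likewise had no pooled peak sharing 50 bp with their window. The peaks of lists 1, 2 and 3 did reach the minimum, with 96, 254 and 183 bp inside the window. Their folds were 2.13 in list 1, 1.99 in list 2 and 1.65 in list 3 (1.92 ± 0.24, SD, n = 3).

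The pooled summit of this site lay 119 bp outside GA3OX4, in the noncoding RNA gene AT1G80325, whose window held the same peak. Counting only peaks whose summit lay in the window, or only peaks of the pooled list that share at least 50 bp, left 4 of the 9 genes with a pooled peak, without GA3OX4. By the 50 bp rule 29.4% of protein-coding genes had one. The GA3OX4 and GA3OX2 sites were separate: their pooled summits lay 3041 bp apart, and the strongest GA3OX2 peak began 79 bp beyond the end of the GA3OX4 window.

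**Figure D2:**
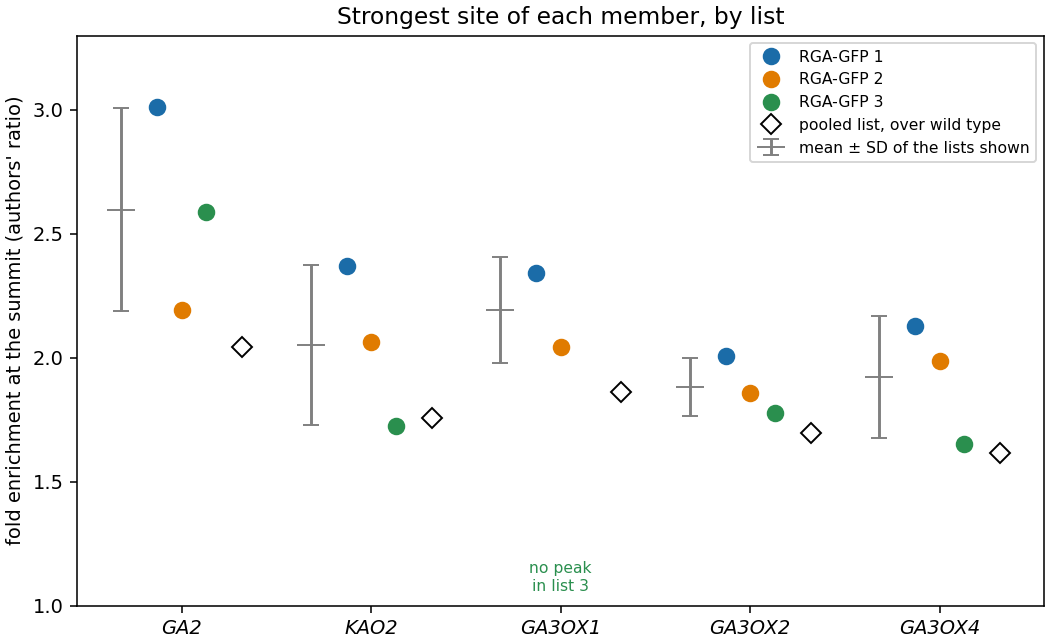
Fold enrichment at the strongest site of the 5 genes with a pooled peak, on a linear axis that starts at 1. Coloured points are RGA-GFP lists 1 to 3, over each library's own background; grey bars are their mean ± SD (n = 3, and n = 2 for GA3OX1, which had no peak in list 3); diamonds are the pooled list, over the combined wild type. List 1 is highest at every gene, and GA2 reaches 3.01.

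Set beside each other, the values of GA2 (2.19 to 3.01) lay above those of GA3OX4 (1.65 to 2.13) and GA3OX2 (1.78 to 2.01) without overlap. They overlapped those of KAO2 and GA3OX1, although GA2 was the higher in each list that both had. GA3OX1 had a higher mean than KAO2, but in lists 1 and 2, the lists with a peak at both, KAO2 was the higher. The order of those genes in the mean fold thus rests on list 3, which enters the mean of KAO2 and not that of GA3OX1. By the summit pileup divided by the tags kept, the direction within lists turned: GA3OX1 was above KAO2 in list 1 (8.95 against 7.99) and in list 2 (7.26 against 6.94), in tags per 1e6 tags kept. The background under the fold was 55.3 tags at GA3OX1 in lists 1 and 2, against 48.8 and 52.3 at KAO2. Ranked by the mean of that scaled pileup, the 5 genes stood in the same order as by mean fold, from 8.76 ± 1.39 at GA2 (SD, n = 3) to 6.32 ± 0.40 at GA3OX2 (SD, n = 3).

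The libraries kept an order across these genes. List 1 had the highest fold at each of the 5, and list 3 had the lowest at KAO2, GA3OX2 and GA3OX4 and no peak at GA3OX1. GA2 was the exception, with list 2 lowest. Among 6281 pooled peaks found in all 3 lists, 48.6% stood in the order 1, 2, 3 and 9.27% in the order 1, 3, 2 seen at GA2. List 1 was highest at 57.9% of them and list 3 lowest at 76.3%. The median folds at these peaks were 2.43, 2.38 and 2.11 in lists 1, 2 and 3. GA2 lay above the median in lists 1 and 3 and below it in list 2, and KAO2, GA3OX2 and GA3OX4 lay below it in all 3 lists.

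The deposited pileup and fold also give the background against which each site was scored, by (pileup + 1) / fold − 1. In the pooled list this is the level of the combined wild type. It can go no lower than the peak caller's genome-wide mean of 71.1 extended tags. That mean, and each ratio to it, rests on an effective genome size set at 90 Mb. At KAO2, all 3 GA3OX1 sites and both GA3OX2 sites the background was 71.1, so wild-type signal around those summits did not exceed the mean so computed. The same held for 31.5% of pooled peaks.

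At GA2 the wild-type background was 78.0 tags and at GA3OX4 it was 80.0, or 1.10 and 1.13 times the genome-wide mean. The median over all pooled peaks was 78.0. Taken over the genome-wide mean at every gene, the pooled fold was 2.24 at GA2, 1.86 at GA3OX1, 1.82 at GA3OX4, 1.76 at KAO2 and 1.70 at GA3OX2. GA2 stayed highest, and GA3OX4 moved from the lowest place to above KAO2. The pooled pileup at GA3OX4, 130.0 tags as scaled to the wild-type depth, lay above the 126 tags of KAO2 and the 121 tags of GA3OX2.

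**Figure D3:**
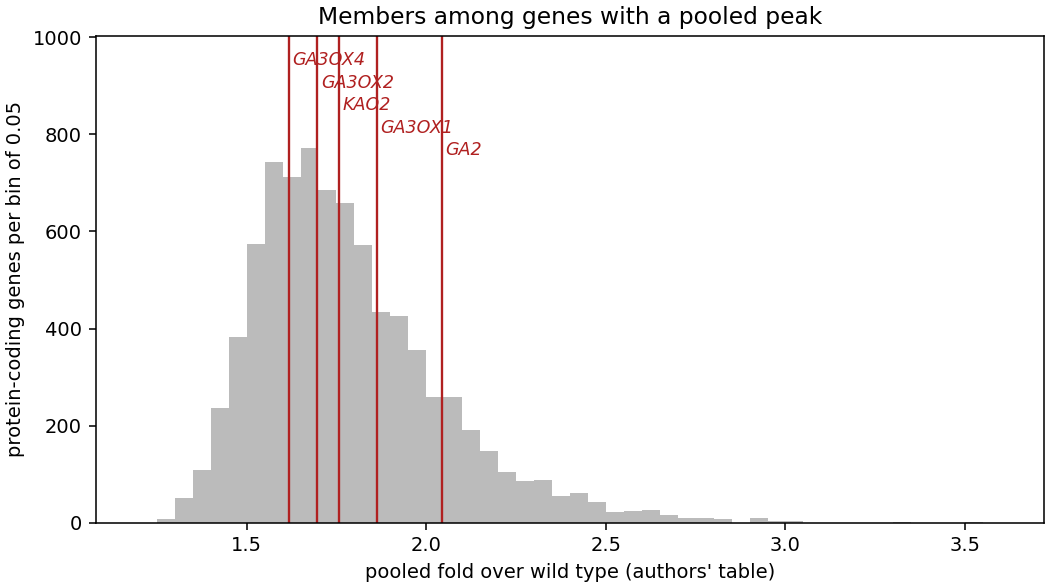
Pooled fold over wild type in the authors' table for the 8156 protein-coding genes with a pooled peak, as genes per bin of 0.05, with red lines at the 5 listed members. GA3OX4, GA3OX2 and KAO2 lie in the bulk of the distribution, GA3OX1 above 68.8% of genes and GA2 above 85.3%.

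Over the 5 listed genes the median pooled fold was 1.76, beside 1.74 over all protein-coding genes with a pooled peak. GA3OX2 and GA3OX4 stood below the genome median, with 43.2% and 28.8% of genes lower. A −log10 q of at least 10 was reached by GA2 alone, against 8.82% of all protein-coding genes. Peaks in all 3 RGA-GFP lists were found at 4 of the 9 genes, all listed genes but GA3OX1, against 30.1% of protein-coding genes.

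The neighbouring steps of the pathway gave higher values at several genes. Of the 20-oxidases, which act just before the 3-oxidases, 3 of 5 had a pooled peak in the authors' table: GA20OX1 (1.88), GA20OX2 (2.68) and GA20OX3 (2.36). Of the 2-oxidases, which inactivate gibberellin, 3 of 7 had one: GA2OX1 (2.45), GA2OX2 (1.70) and GA2OX4 (1.90). The share of all protein-coding genes with a pooled peak was 29.7%. Among the other inactivating enzymes ELA1, a cytochrome P450 gene, had a fold of 2.18, and ELA2, GAMT1 and GAMT2 had none.

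All 3 receptor genes had a pooled peak, with 2.40 at GID1A, 2.79 at GID1B and 2.10 at GID1C. The range of the 3 listed 3-oxidase genes, 1.62 to 1.86, lay below that of the receptors (2.10 to 2.79). It also lay below all 3 listed 20-oxidase genes (1.88 to 2.68), the nearest of which, GA20OX1, was close to GA3OX1. It overlapped that of the 3 listed 2-oxidase genes (1.70 to 2.45). The 2 listed early genes spanned 1.76 to 2.04. Each of these folds is 1 value from pooled libraries, so the differences between classes carry no replicate error and were not tested.

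**Figure D4:**
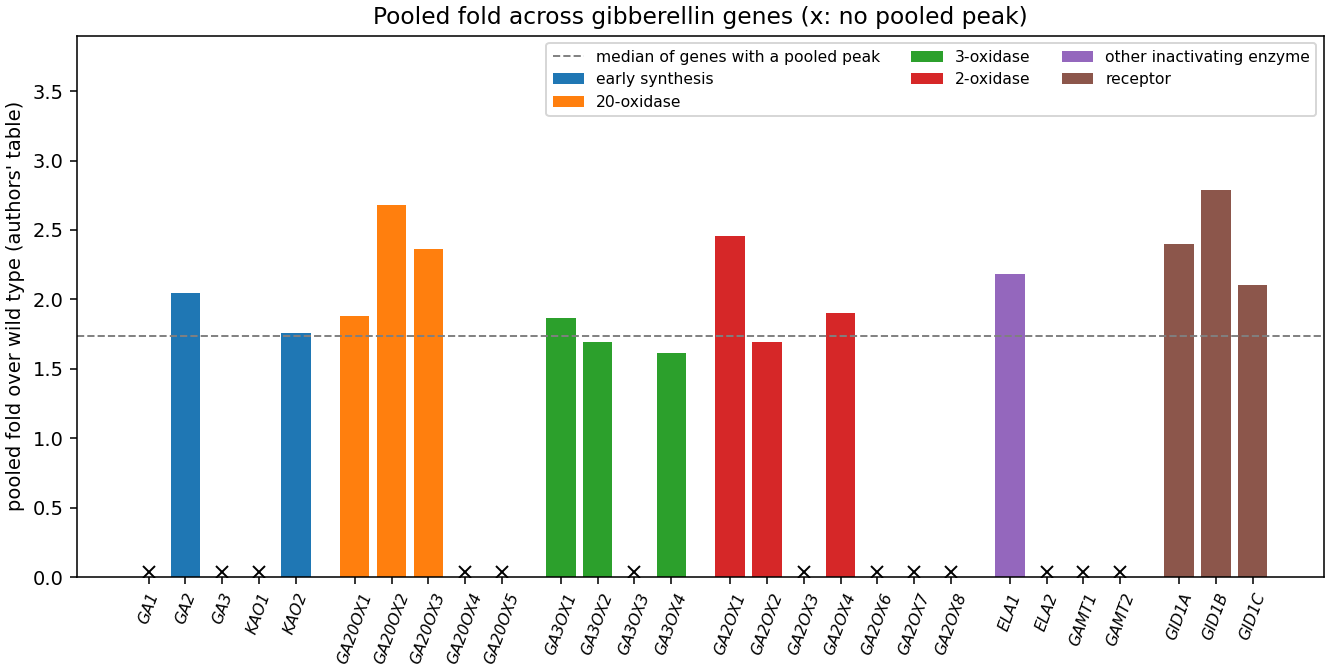
Pooled fold over wild type in the authors' table for genes of gibberellin synthesis, inactivation and reception, with bars from 0 and crosses where a gene has no pooled peak. The dashed line is the median of 1.74 over protein-coding genes with a pooled peak. Bars of the 3-oxidases reach at most 1.86, and the receptor bars start at 2.10.

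The genes whose strongest site was most like that of GA2 in fold were AT5G58090 and AT5G58100, neighbours that share a peak, and AT3G01360. Likeness was the distance in log2 fold over 4 lists (the 3 RGA-GFP lists and the pooled list), among 7295 genes with a peak in all of them. AT5G58090 had 3.05, 2.38 and 2.46 in lists 1, 2 and 3 and a pooled fold of 2.05, at a distance of 0.14. AT3G01360 had 3.01, 2.40 and 2.39 and a pooled fold of 1.96, at a distance of 0.18.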

How the data were processed

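Reads were placed on the TAIR10 build with Bowtie2 and SAMtools, per the submitters' processing notes. Peaks were called with MACS 2.0.10.20130915, per the file headers, on each library without control and on the combined RGA-GFP against the combined wild-type replicates, with 1 tag kept per position, a q cutoff of 0.05 and an extension of tags to 300 bp. The fold is the authors' ratio of summit pileup to local background. The pileup is the authors' signal, the extended tags over the summit. In the pooled list it is scaled down to the depth of the combined wild type. That depth was 21323289 tags kept, against 39204769 for the combined RGA-GFP replicates. Significance is given as deposited, the −log10 of each peak's q value. A fold in a single list and one in the pooled list are different ratios. The authors' deposited table links genes to peaks, per the file headers, by an overlap of at least 50 bp and a replicate log10 q of 3.

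Samples were grouped by their titles. The 9 genes, the other genes of the pathway and the alternatives were chosen with earlier results of these data known. All 9 genes are named, together with genes whose window shares their peaks, the listed pathway genes with a pooled peak, and the 3 genes most like the strongest member. Per library, genes with a peak were counted, in the authors' windows and, chosen after seeing the data, within 5000 bp of the gene's ends. A planned exact permutation test of the window counts is not reported, since the table lists only genes with an RGA-GFP peak. The overlap code was tested on simulated data. Wild-type and RGA-GFP levels at a summit were recovered as (pileup + 1) / fold − 1. The pseudocount of 1 is read from the values: no pooled peak fell below the genome-wide mean given by the headers, and 2556 of 8112 lay within 0.05 of it. A gene with no row in the authors' table has no window there, so its nearest peaks were measured from the gene's ends. Gene ends and neighbours came from the RefSeq table of assembly GCF_000001735.4 (TAIR10.1). None of its coordinates is printed. It places summits relative to genes, since 26.0% of the authors' window edges lay within 1 bp of a RefSeq gene edge, against 0.44% after a shift of 100 bp. The table gives no strand: upstream was read from the authors' windows at GA3OX1 and GA3OX2 only. Sequences and motifs were not analysed here.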

Additional observations from a re-analysis of the deposited data

How the results depend on the processing

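Across 14 results and 58 alternative values, 4 moved a count past the limit of 1.5 times and none was marked reversed. Only the difference in genes per library could be marked so. Mean folds were judged against 1 SD over the lists, a limit that leaving out 1 list cannot pass. Leaving out a wild-type library likewise cannot raise a count of 0. The number of unmoved values is therefore no measure of stability. With a −log10 q of at least 10, or a fold of at least 2, the members with a pooled peak fell from 5 to 1, GA2, and with a −log10 q of at least 10 the members with a peak in all 3 RGA-GFP lists fell from 4 to 1, again GA2. With that limit the difference in genes per library, RGA-GFP minus wild type, fell from 4.67 to 2. With pooled peaks required in both remaining RGA-GFP lists when 1 was left out, the count ranged from 4 to 5. The difference in genes per library ranged from 4.50 to 5 with a library left out, and it was 4.67 with a peak within 5000 bp of the gene's ends and with a replicate block by number, both chosen after seeing the data. In the authors' windows its direction follows from how the table was made, so none of these values bears on its stability. No label ties equal numbers to a shared batch. Since every wild-type library had 0, pairing by number could not have shown in these counts. No wild-type peak entered a window of the 5 listed genes under any alternative. The lists hold no site below the authors' cutoff, and wild-type library 3 kept the fewest tags, 3999159.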
